A study of Mus musculus with 2 samples.

Results

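Imprinted genes were described here by their open chromatin in mouse spleen. The 36 genes were taken from a list of known imprinted genes by symbol, and all 36 were found in the GENCODE M21 annotation of mm10, which holds 55413 genes. Each gene was widened by 10 kb at both ends. A promoter peak lay within 1000 bases of any annotated start site of the gene, and a distal peak lay over 1000 bases from the start sites of every gene. Neighbouring members overlap, so the 36 widened genes merge into 26 loci spanning 2272.2 kb, and each site in them was counted once.

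The assay was DNase-seq, in which DNase I cuts accessible DNA in nuclei and the cut ends are sequenced. It was run on whole spleen of male B6CASTF1/J mice, an F1 cross, at 14 days of age. There was 1 group of 2 biological replicates, with 1 library each. The labels give 3 males for replicate 1 and 1 male for replicate 2, and the same donor entry for both. With 1 group there is no contrast to test, so values are given per library and no p-value is printed for a difference. Each library came with a main and a larger peak list, a list of bases with a false discovery rate (FDR) under 0.05, and a list of footprints, short protected stretches inside accessible DNA. The main list is the one with fewer bases, with 48286 peaks in replicate 1 and 28837 in replicate 2. A peak's height is the authors' deposited signal, on a scale that no source used here gives, and the read depth is unknown.

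At an imprinted gene, transcription comes mainly from the copy inherited from one parent. The choice is held by control regions that carry DNA methylation from one germline only, and the unmethylated copy of such a region is often an active promoter, frequently of a long noncoding RNA that silences its neighbours. At H19 and Igf2 the control region instead binds CTCF, an insulator protein, on the unmethylated maternal copy, while ZFP57 binds the methylated copy of control regions and keeps the mark. The cross is one in which the parental copies differ in sequence, but the files hold no allele counts, so every height below sums both copies and which copy is open cannot be told apart. Spleen is also a mixture of cells, and fewer cells of a type and less opening per cell cannot be told apart.

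The sequences that carry the main patterns are printed from the RefSeq assembly of the files' build (GRCm38.p6, mm10), with motif matches in capitals. Motifs were searched on both strands as fixed letters: CTCF as CC, any base, C, any 2 bases, GG, any base, GGC, any base and G, ZFP57 as TGCCGC, NRF1 (a promoter activator) as GCGC, any base and TGCGC, YY1 as AANATGGC, and the CCAAT box read by NF-Y as CCAAT, the last added after the data were seen. A match is a run of letters, not a shown binding site, and it was counted as lying in a footprint where they share at least 1 base.

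The first set holds the sites upstream of H19 (chr7:142580294-142580368, plus strand), upstream of Cdkn1c (chr7:143463981-143464160 and chr7:143466401-143466600, plus strand) and in an intron of H13 beside Mcts2 (chr2:152696861-152697060, plus strand), shown because each holds the CTCF letters in capitals.
H19 upstream: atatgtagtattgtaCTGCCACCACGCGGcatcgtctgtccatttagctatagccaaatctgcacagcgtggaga
Cdkn1c upstream A: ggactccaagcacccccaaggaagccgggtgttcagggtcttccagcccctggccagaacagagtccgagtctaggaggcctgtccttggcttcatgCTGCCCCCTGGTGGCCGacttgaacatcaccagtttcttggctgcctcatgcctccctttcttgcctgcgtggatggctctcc
Cdkn1c upstream B: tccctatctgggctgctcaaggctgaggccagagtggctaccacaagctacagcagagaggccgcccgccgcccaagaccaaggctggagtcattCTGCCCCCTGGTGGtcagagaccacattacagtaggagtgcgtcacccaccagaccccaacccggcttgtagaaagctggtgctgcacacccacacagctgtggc
H13 intron: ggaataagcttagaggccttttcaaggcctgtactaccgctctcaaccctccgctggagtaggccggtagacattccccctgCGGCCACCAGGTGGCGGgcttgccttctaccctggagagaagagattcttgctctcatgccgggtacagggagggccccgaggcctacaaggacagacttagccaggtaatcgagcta
In Cdkn1c upstream A and in the H13 intron, matches on both strands overlap and form 1 capital run. In the H19 sequence the ZFP57 letters overlap the end of the CTCF match on the same strand and are not marked.

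The second set holds 3 sites where a short motif lay in a footprint of both libraries: the start of Kcnq1ot1 (chr7:143296481-143296780, minus strand, capitals CCAAT), an intron of Peg10 (chr6:4749241-4749460, plus strand, capitals NRF1), and the sequence before an internal start of Inpp5f (chr7:128688321-128688488, plus strand, capitals NRF1 and then ZFP57). The ZFP57 match at Inpp5f lay in a footprint of replicate 2 only.
Kcnq1ot1 start: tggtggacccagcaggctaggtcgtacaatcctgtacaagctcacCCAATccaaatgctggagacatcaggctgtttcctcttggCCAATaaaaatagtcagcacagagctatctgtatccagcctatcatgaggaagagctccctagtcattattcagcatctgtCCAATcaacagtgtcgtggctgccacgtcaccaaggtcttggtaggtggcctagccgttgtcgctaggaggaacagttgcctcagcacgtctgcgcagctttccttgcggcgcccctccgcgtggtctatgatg
Peg10 intron: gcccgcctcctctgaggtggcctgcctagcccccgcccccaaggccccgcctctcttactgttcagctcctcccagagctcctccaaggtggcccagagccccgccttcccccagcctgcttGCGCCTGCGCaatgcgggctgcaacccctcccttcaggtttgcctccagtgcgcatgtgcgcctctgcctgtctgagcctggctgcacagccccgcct
Inpp5f internal start: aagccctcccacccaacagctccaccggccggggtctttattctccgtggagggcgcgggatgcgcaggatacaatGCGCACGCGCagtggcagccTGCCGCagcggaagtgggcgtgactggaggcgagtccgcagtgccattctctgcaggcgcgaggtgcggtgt

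The third set holds promoter sites of contrasting height at members listed with a control region. They are the intron peak of Peg3 (chr7:6729522-6729660, minus strand, capitals YY1) and the starts of Peg13 (chr15:72809961-72810140, minus strand), Snrpn (chr7:60005112-60005231, minus strand) and Airn (chr17:12741260-12741480, plus strand), the last 3 with ZFP57 in capitals.
Peg3 intron: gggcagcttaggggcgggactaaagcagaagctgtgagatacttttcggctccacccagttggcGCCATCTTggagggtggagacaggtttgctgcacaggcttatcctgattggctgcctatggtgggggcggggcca
Peg13 start: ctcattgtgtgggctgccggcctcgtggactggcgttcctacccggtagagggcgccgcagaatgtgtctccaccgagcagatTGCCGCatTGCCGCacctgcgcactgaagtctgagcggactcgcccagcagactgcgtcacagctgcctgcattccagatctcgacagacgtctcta
Snrpn start: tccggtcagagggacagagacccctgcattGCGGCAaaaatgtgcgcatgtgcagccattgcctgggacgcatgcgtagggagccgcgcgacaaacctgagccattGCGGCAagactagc
Airn start: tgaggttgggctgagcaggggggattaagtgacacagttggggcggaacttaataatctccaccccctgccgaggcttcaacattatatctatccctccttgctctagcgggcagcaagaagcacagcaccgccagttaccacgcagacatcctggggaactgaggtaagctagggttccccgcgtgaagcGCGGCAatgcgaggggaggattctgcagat

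A promoter peak was present in both main lists at 12 of the 36 members (33.3%), against 24.9% of all genes. Of the 28 protein-coding members 9 had one (32.1%), against 51.1% of protein-coding genes, and 3 of the 8 noncoding members did (37.5%). The noncoding share lay above the 24.9% of all genes. Over the annotation 11220 of the 13785 genes with such a peak are protein-coding, so the share of the other genes is below 24.9%. Replicate 1 had a promoter peak at 19 members (52.8%, against 28.9% of all genes) and replicate 2 at 14 (38.9%, against 25.1%). The 7 members with one in replicate 1 alone were 19.4% of the list, against 3.98% of all genes, and the 2 with one in replicate 2 alone were 5.56%, against 0.24%. With 21 members in either list (58.3%, against 29.1%), 15 had none. In the larger lists the count in both libraries was 21 of 36 (58.3%), against 27.9% of all genes, and all 12 of the first count were among them. The protein-coding members stood at 16 of 28 (57.1%) in the larger lists, against 56.1% of protein-coding genes. The protein-coding members thus lay below the share of such genes in the main lists and close to it in the larger ones.

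**Figure D1:**
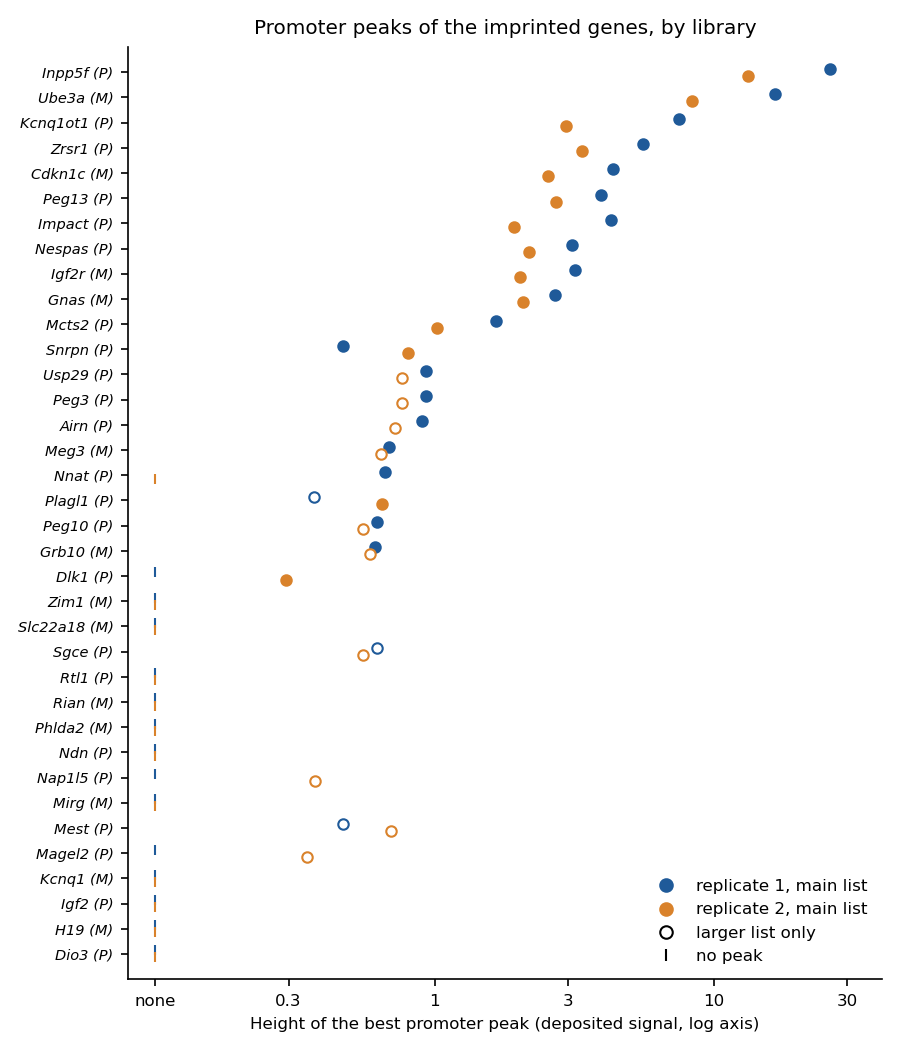
Height of the best promoter peak (deposited signal, log axis) of each of the 36 members, blue for replicate 1 and orange for replicate 2, with filled points for the main list, open points for peaks held only by the larger list, and ticks at the left for no peak. P and M mark genes listed as expressed from the paternal and the maternal copy, a label of the gene and not of the start with the peak. Inpp5f and Ube3a stand above the rest, and 9 members that miss the main list in at least 1 library have a peak in both larger lists.

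The highest promoter peaks belonged to 2 genes whose main start has no methylated control region. Inpp5f, an inositol phosphatase, had a height of 26.1 in replicate 1 and 13.3 in replicate 2 beside its first start. Ube3a, a ubiquitin ligase that is imprinted in neurons and expressed from both copies in most other tissues, had 16.6 and 8.32. Both exceeded the median over all genes with a promoter peak in both libraries, which was 7.56 in replicate 1 and 4.61 in replicate 2, and the other 10 members lay below it in both. Ube3a shares its start region with an antisense gene, 9330162G02Rik, and peaks carry no strand.

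Further promoters of paternally expressed genes are given next, not as a ranking. The maternally expressed Cdkn1c, given below, was higher than Impact in both libraries. Kcnq1ot1, the long noncoding RNA that silences its neighbours on the paternal copy, had 7.51 in replicate 1 and 2.94 in replicate 2, the largest ratio among the 12 (log2 1.35). Zrsr1, a splicing-factor gene that arose by retroposition inside Commd1, had 5.56 and 3.37. That peak also overlaps an annotated start of Commd1, and reads at Zrsr1 could be shared with its near copies. Impact, an inhibitor of the stress kinase GCN2, had 4.27 and 1.93. Its mean of 3.10 fell to 2.03 when only start sites of basic transcripts were used. Peg13, a noncoding RNA inside Trappc9, had 3.94 and 2.72. In each of these 4 the peak of replicate 1 was the higher.

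The members listed as maternally expressed with a promoter peak in both libraries were Ube3a, Cdkn1c, Igf2r and Gnas. This label goes by gene, and the Gnas peak lay at other starts than those of its maternally expressed Nesp55 transcripts. Cdkn1c, the cell-cycle inhibitor p57, had 4.35 in replicate 1 and 2.55 in replicate 2. Igf2r, the receptor that clears IGF2, had 3.19 and 2.02. Gnas, the stimulatory G protein subunit, had 2.70 and 2.07, and its antisense RNA Nespas, expressed from the paternal copy, had 3.10 and 2.17. The last 4 genes lay between 2.70 and 4.35 in replicate 1 and between 2.02 and 2.55 in replicate 2.

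At the low end were Mcts2 and Snrpn. Mcts2, a retroposed gene inside H13 whose reads could also be shared with its parent gene, had 1.65 in replicate 1 and 1.02 in replicate 2. Snrpn, a splicing protein gene at the control region of the Prader-Willi locus, had 0.470 and 0.805 and was the only one of the 12 that was higher in replicate 2. Over the 12 genes the median was 4.11 in replicate 1 and 2.36 in replicate 2. The log2 ratio of the libraries (replicate 1 over 2) had a median of 0.71, against 0.70 over all genes with both peaks, so the offset between libraries was that of the genome. Its range over the 12 was -0.78 to 1.35.

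Of the 23 paternally expressed members 8 had a promoter peak in both main lists (34.8%), and of the 13 maternally expressed ones 4 did (30.8%), against 24.9% of all genes and 51.1% of protein-coding genes. Of these members 19 and 9 are protein-coding, and the labels go by gene, not by the start that had the peak. Of the 21 members with a germline-methylated control region at a start or inside the gene, 10 had a promoter peak in both libraries (47.6%), and of the 15 others 2 did (13.3%), Ube3a and Cdkn1c. With 17 of the 21 and 11 of the 15 protein-coding, the first share lay near the 51.1% of protein-coding genes and the second below it. In the larger lists these counts were 18 of 21 (85.7%) and 3 of the 15 others, against 56.1% of protein-coding genes. Besides those 3 of the 15 others, Dlk1 and Magel2 had one in the larger list of replicate 2 only. Counted in either library's larger list, 20 of the 21 had one, against 33.3% of all genes, noncoding ones included. The exception was Kcnq1, a potassium channel gene whose control region lies in an intron, at the start of Kcnq1ot1, and whose own starts had no peak. These counts are descriptions, since members of a cluster share sites and no test was run. They go by gene, so a counted peak need not lie at the control region. That of Igf2r lay at its own start and not at the Airn start inside it, and the highest of Inpp5f lay at its main start.

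**Figure D2:**
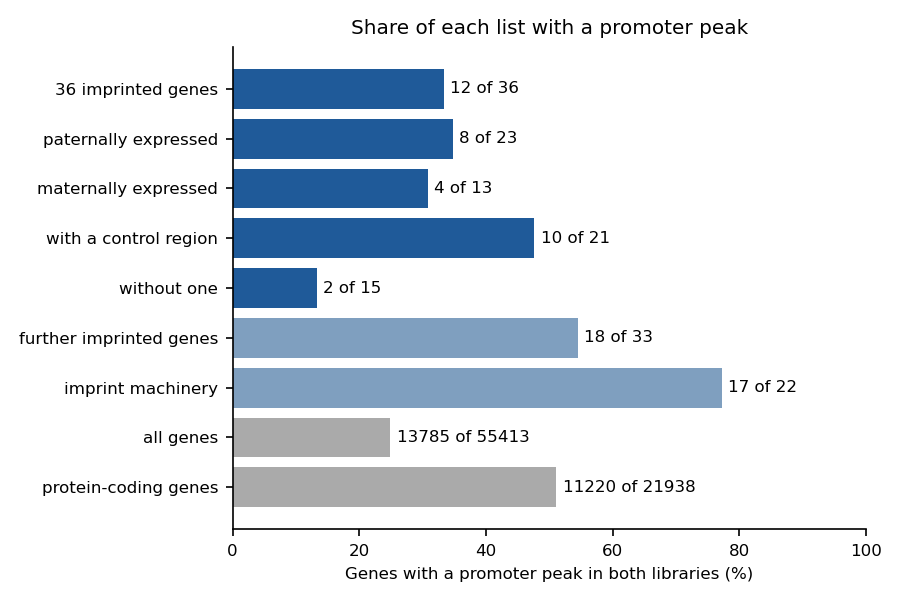
Percent of genes with a promoter peak in both main lists, for the 36 members, their subsets, 2 further lists and the whole annotation, with the counts beside the bars. The members with a control region at a start or inside the gene (10 of 21) stand above the others (2 of 15). These others include H19 and Igf2, so the bar labelled as without one does not mean genes free of any control region. The whole list (12 of 36) lies between all genes and protein-coding genes. A counted peak need not lie at the control region.

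Several promoters, most of them of members listed with a control region, were found in 1 main list and at low height. In replicate 1 these were Peg3 and Usp29, which share 1 intron peak at 0.932, Airn at 0.898, Meg3 at 0.688, Nnat at 0.663, Peg10 at 0.621 and Grb10 at 0.613. Replicate 2 had no main peak at any of these 7 genes, but its larger list held one at Peg3 and Usp29 (0.765), Airn (0.724), Meg3 (0.643), Grb10 (0.586) and Peg10 (0.553), and none at Nnat. Plagl1, a zinc-finger gene, went the other way, with 0.651 in the main list of replicate 2 and 0.369 in the larger list of replicate 1. Mest, a hydrolase gene, and Sgce, a sarcoglycan gene facing Peg10, had promoter peaks only in the larger lists, at 0.470 and 0.699 for Mest and 0.621 and 0.553 for Sgce, the latter the same peak as that of Peg10. All of these heights were under 1, below the median height of main peaks, which was 1.49 in replicate 1 and 1.79 in replicate 2.

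Dlk1, a membrane ligand of the Notch family, had a promoter peak only in replicate 2, at 0.293. The other members without a promoter peak in either main list were H19, Igf2, Kcnq1, Phlda2, Slc22a18, Zim1, Ndn, Magel2, Rtl1, Rian, Mirg, Dio3 and Nap1l5. They include the growth factor Igf2 and its noncoding neighbour H19, the placental growth restrainer Phlda2, the neuronal genes Ndn and Magel2, and the retrotransposon-derived Rtl1. The list of bases with an FDR under 0.05 is a more permissive view. It reached the promoter of 22 members in both libraries (61.1%), against 28.6% of all genes and 56.9% of protein-coding genes, and of 19 of the 21 members with a control region. At the FDR limit of 0.001 the count was 14, against 25.3% of all genes and 51.7% of protein-coding genes. No base was listed in either library at the promoters of H19, Igf2, Kcnq1, Phlda2, Slc22a18, Zim1, Ndn, Rtl1, Rian, Mirg and Dio3. For 9 members no main peak of either library lay anywhere in the widened gene: Igf2, Zim1, Magel2, Rtl1, Rian, Mirg, Dio3, Mest and Nap1l5.

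The neighbouring genes Cdkn1c, Slc22a18 and Phlda2 held 4 of the 11 distal sites found in both libraries. Upstream of Cdkn1c, 2931 bases from its start, the first had a height of 1.11 in replicate 1 and 1.50 in replicate 2, and 5351 bases from the start the second had 1.19 and 1.38. Both carry the same CTCF letters, printed above, in footprints of both libraries. A site in an intron of Slc22a18, a transporter gene, had 1.07 and 1.26, and one 2811 bases from the start of Phlda2 had 1.69 and 1.65. Thus 3 of these 4 were higher in replicate 2, while the Cdkn1c promoter was higher in replicate 1. A distal site in an intron of Kcnq1 had 1.53 and 1.38.

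At the start of Kcnq1ot1 the main peak (chr7:143296481-143296820) covers the start and carries 3 CCAAT boxes, all in footprints of both libraries. A second peak 629 bases from the start had 0.823 in replicate 1 and 0.984 in replicate 2 and holds 3 ZFP57 matches, none in a footprint. The peak between them was called in replicate 1 alone, at 0.629. Height and the footprinted boxes thus lay at the start, and the ZFP57 letters within the transcribed side.

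At Gnas (chr2:174284320-174346744) peaks followed the alternative starts. The first starts, those of the maternally expressed Nesp55 transcripts, had no peak in either main list. The start at 174297859 had 0.923 in replicate 1 and none in replicate 2. The starts from 174327570 to 174328023 had 2.64 and 1.58, and those from 174330006 to 174330287 had 2.70 and 2.07. Of the last starts, the one at 174341704 had no main peak. The one at 174344650 had 2.32 in replicate 1 and none in the main list of replicate 2. An intron site 14362 bases from any start had 3.23 and 1.80, above every Gnas promoter in replicate 1. Gnas and its surroundings carried 53 footprints in replicate 1 and 36 in replicate 2, the most of any member in both libraries.

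Impact (chr18:12955852-12992950) had its highest peaks at annotated starts downstream of its first one. That start had 1.23 in replicate 1 and none in replicate 2. At the starts from 12971923, that of transcript Impact-201, to 12974674, 4 neighbouring peaks had 2.80 to 4.27 in replicate 1 and 1.16 to 1.93 in replicate 2. Upstream, 8312 and 7392 bases from the first start, 2 distal sites had 2.39 and 1.93, and 2.32 and 1.11. Both lie between genes and nearer to a start of Osbpl1a, at 5420 and 6420 bases. Inpp5f had a second promoter at an internal start, with 1.91 and 1.63, and an intron site 1792 bases from it with 3.01 and 3.68, higher in replicate 2. In mouse the imprinted transcript of Inpp5f begins at an internal control region, and its main start is not imprinted.

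Peg10, a retrotransposon-derived gene, had its main site outside the promoter window. That site lies in an intron 1835 bases from the nearest start and had 5.93 in replicate 1 and 3.46 in replicate 2, the highest of the 11 distal sites in replicate 1. It is held by the widened genes of both Peg10 and Sgce, and it is the one printed above with NRF1 letters in footprints of both libraries. With a promoter window of 2000 bases Peg10 joined the genes with a promoter peak in both libraries, making 13. Grb10, a signalling adaptor, had a distal intron site with 1.38 and 1.03, higher than its promoter peak of 0.613.

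Upstream of H19, 2151 bases from the nearest start, a 75-base peak had a height of 0.546 in the main list of replicate 1 and none in that of replicate 2. The larger list of replicate 2 held a peak there at 0.756. The CTCF letters in it lay in no footprint of either library. No other main peak fell in the widened H19 gene.

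**Figure D3:**
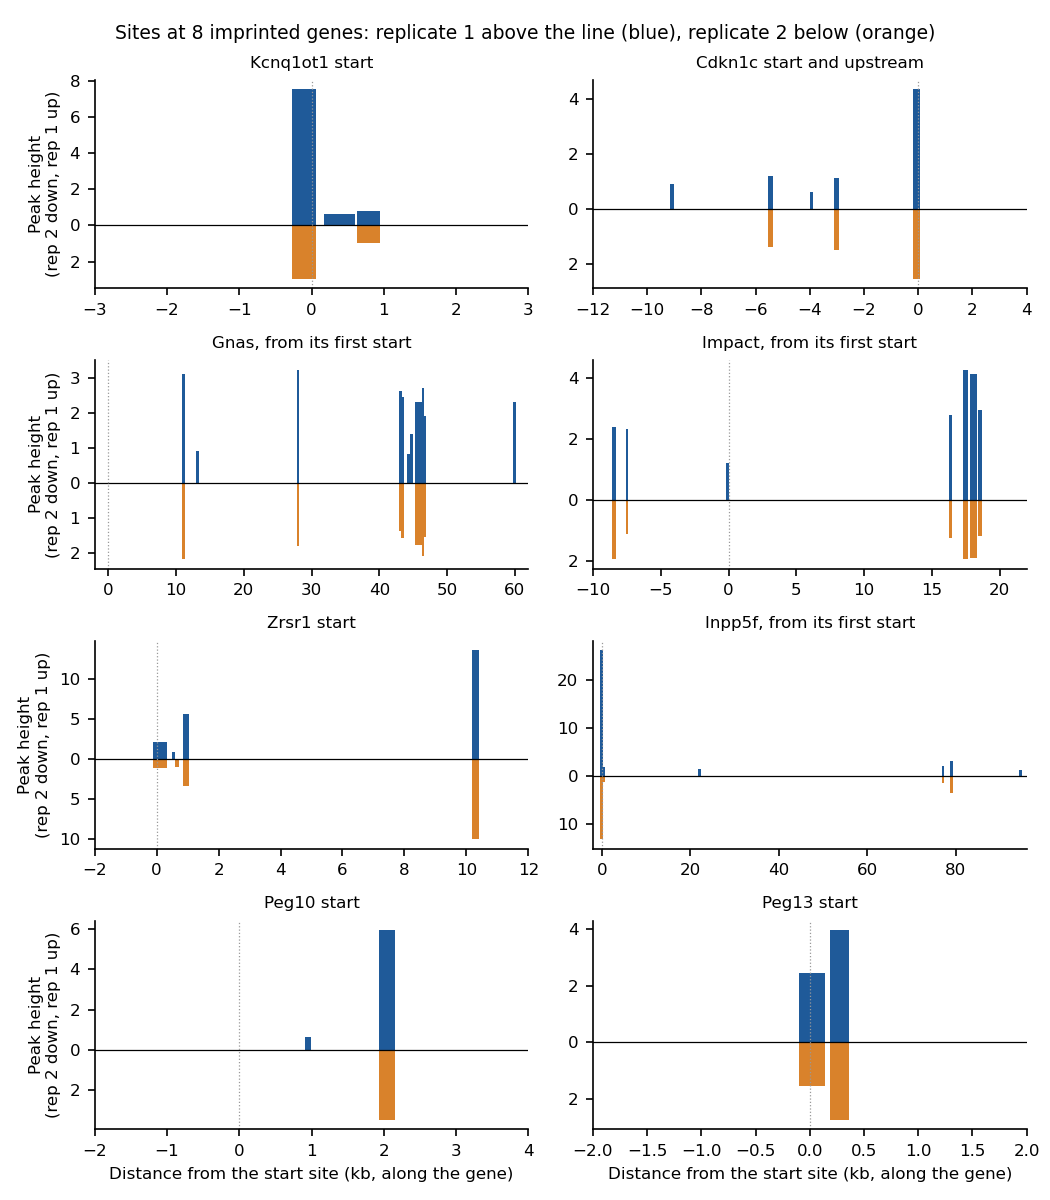
Main-list sites at 8 members by distance from the start site in kb, along the direction of the gene, with bar height the deposited signal, replicate 1 above the line in blue and replicate 2 below in orange. The vertical scale differs between panels and narrow sites are drawn wider than they are. Kcnq1ot1, Cdkn1c and Inpp5f are highest at the start, Impact near annotated starts downstream of its first one, and Peg10 at a site inside the gene. The highest bar in the Zrsr1 panel is the promoter of Commd1.

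The 26 loci held 94 distinct sites, 39 found in both main lists, 29 in replicate 1 alone and 26 in replicate 2 alone. Of the 41 at member promoters 25 were in both, and of the 50 distal sites 11 were. The other 3 were promoters of genes inside or beside members and were in both: Commd1 with 13.6 in replicate 1 and 9.99 in replicate 2, a noncoding gene in the H13 intron with 5.57 and 4.89, and Blcap, the host gene of Nnat, with 3.66 and 2.42. By gene, 10 of 36 members held a distal peak in both libraries (27.8%), against 16.6% of all genes and 27.6% of protein-coding genes. They were 6 of the 13 maternally and 4 of the 23 paternally expressed members, several through shared sites. Promoter sites were higher in replicate 1 at 23 of 25, with a median log2 ratio of 0.67, against 0.65 and 94.9% over the genome's shared promoter sites. Distal sites were higher at 7 of 11, with a median of 0.14, against 0.37 and 78.0% over the genome.

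**Figure D4:**
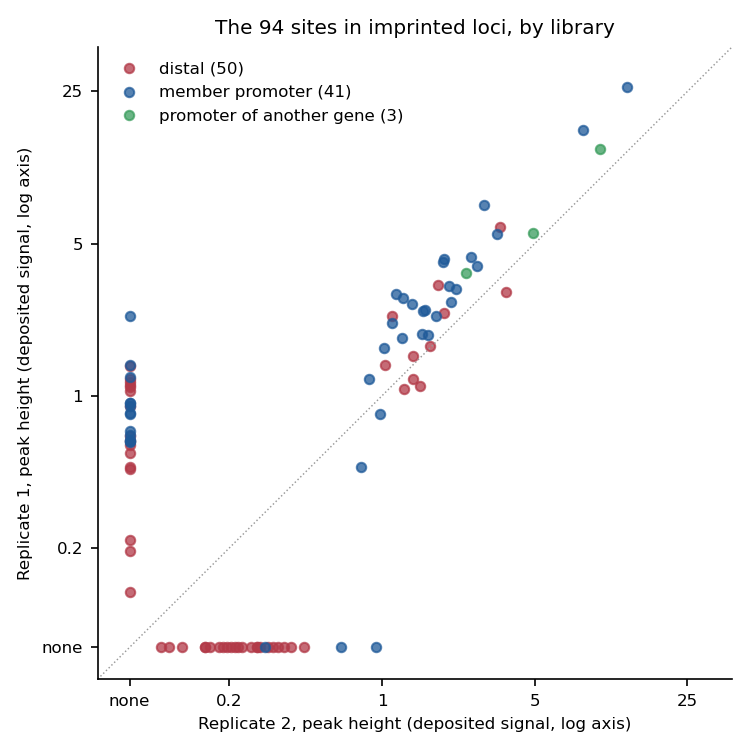
Height of each of the 94 sites in replicate 2 (horizontal) and replicate 1 (vertical), deposited signal on log axes, coloured by class, with sites missing from a main list at "none" and a dotted line of equal height. Of the 25 promoter sites in both libraries 23 lie above the line, and most sites of replicate 2 alone are distal and below 0.5.

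The sites of replicate 2 alone came mostly in runs of low peaks. Of its 68 peaks in the member loci 25 had a height under 0.5 (36.8%), against 6.44% of all its main peaks. In replicate 1 these were 6 of 70 (8.57%), against 3.36%. An intron of Kcnq1 held 9 such peaks over 6.76 kb, at 0.0976 to 0.439. The intron of Trappc9 near Peg13 held 7 over 2.72 kb, Dlk1 held 6 over 2.72 kb across its exons and end, and the single exon of Ndn held 3 over 0.75 kb. Replicate 1 had no main peak in any of the 4 stretches. Its larger list held 1 peak in the Ndn stretch, at 0.445, and none in the others. Replicate 1 had a run of its own of 3 peaks over 1.71 kb elsewhere in Kcnq1, where replicate 2 had none. The Dlk1 promoter peak and 5 further Dlk1 peaks belong to these runs, so the call at Dlk1 rests on 1 library and on heights under 0.3. The cause of the runs was not tested.

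The runs set the density of distal peaks. Member loci held 11.9 distal peaks per Mb in replicate 1 and 15.4 in replicate 2, against 12.5 and 5.47 over the loci of all genes. Counting only peaks of at least 0.5, a limit chosen after the data were seen, the values were 9.68 and 4.84, against 12.1 and 4.80. The excess of replicate 2 was thus made of peaks under 0.5. Footprints numbered 269 in replicate 1 and 233 in replicate 2. Per Mb these were 118 and 103, against 104 and 69.3 over the loci of all genes. Of the footprints in member loci 78.8% and 60.9% lay inside a main peak, against 71.5% and 68.7% over the genome.

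**Figure D5:**
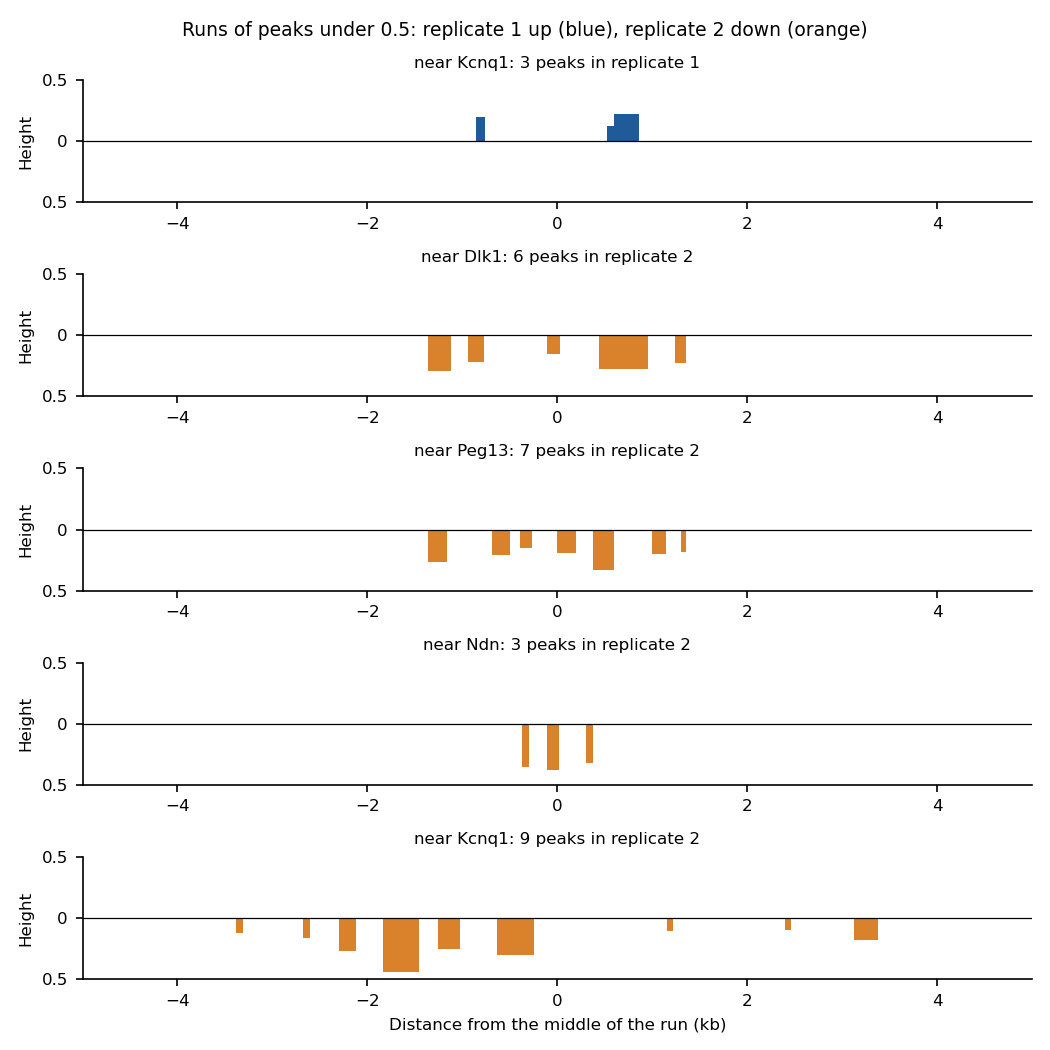
Main-list peaks in the 5 runs of at least 3 peaks under 0.5, by distance from the middle of the run in kb, with height the deposited signal, replicate 1 up in blue and replicate 2 down in orange. In each panel the peaks come from 1 library, and none reaches 0.5.

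Motif letters in 300-base windows around the peak centres were set beside the share of all main peaks of the same class. ZFP57 letters were in 34.9% of the 43 promoter windows (start sites of any gene) in member loci of replicate 1 and 39.4% of the 33 of replicate 2, against 21.2% and 24.0% over all promoter peaks. CTCF letters were in 9.30% and 9.09%, against 3.75% and 4.22%. In distal windows CTCF letters were in 5 of 27 (18.5%) in replicate 1 and 3 of 35 (8.57%) in replicate 2, against 4.47% and 6.40%. With the called peak searched in place of the window, distal CTCF in replicate 2 stood at 5.71% against 6.13%, so that difference turned round. ZFP57 letters in promoter peaks of replicate 2 then stood at 24.2% against 19.4%. These counts are small, windows of neighbouring peaks overlap, and a gene with many peaks weighs more. Of the 18 called sites with ZFP57 letters, 5 were at Gnas. ETS letters (CCGGAA) were in 14.0% and 12.1% of promoter windows, against 22.3% and 25.6%, and the CACCC box (CCNCNCCC) in 48.8% and 51.5%, against 64.7% and 69.1%.

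Within the called sites, matches in footprints of both libraries were counted and set beside the same share over the sites of the whole genome. Longer motifs overlap a footprint more easily, so shares are compared only within a motif. For CTCF 6 of 10 matches in 8 sites were in footprints of both libraries (60.0%, against 66.7% over all sites). Overlapping matches on opposite strands make these 4 of 8 distinct places, 2 at Cdkn1c, 1 at Gnas and 1 in the H13 intron. All 3 NRF1 matches were, at Peg10, Inpp5f and Zrsr1 (against 85.0%), and 2 of 3 YY1 matches were, one of them in the Peg3 intron (against 29.6%). Of 27 ZFP57 matches in 18 sites 1 was, at the start of Peg13 (3.70%, against 18.6%). The 2 matches at Snrpn and the 1 at Airn were in no footprint of replicate 1. For ETS 4 of 9 matches were (44.4%, against 27.2%), and for the CACCC box 23 of 87 (26.4%, against 39.2%). GATA letters (GATAA) had 25 matches, 17 of them in the 4 sites at Zrsr1, where they recur along the sequence, and 1 of the 25 was in footprints of both (against 6.94% over all sites). For CCAAT 8 of 29 were (27.6%, against 18.7%). Most of these counts are small. The CpG content of shared promoter sites, as observed over expected CpG, had a median of 0.788, against 0.799 over all shared promoter sites. Shared distal sites had 0.387 (n = 11), against 0.285 (n = 9447).

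The other genes of the pathway were read from 2 lists. Of 33 further imprinted genes 18 had a promoter peak in both libraries (54.5%), against 24.9% of all genes and 51.1% of protein-coding genes, which 32 of the 33 are. Their medians were 3.35 in replicate 1 and 2.10 in replicate 2 where present. The highest were Dhcr7, a cholesterol synthesis enzyme, with 21.6 and 11.8, Commd1 with the values above, and Trappc9, a vesicle transport subunit, with 13.2 and 8.45, and Ano1, a chloride channel gene, had none. Of 22 genes that read, keep or erase imprints, all protein-coding, 17 had one (77.3%, against 51.1% of protein-coding genes), with medians of 10.9 and 6.51. Among these Mbd3, a subunit of the NuRD repressor, had 29.0 and 13.1, Yy1 had 24.3 and 11.7, and Kdm1b, a histone demethylase needed for maternal imprints, had 16.9 and 11.8, while Dnmt3l, a germline cofactor of DNA methylation, had none.

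Marker genes of spleen cells were read in the same way. A promoter peak in both libraries was present at 5 of 6 B cell, 5 of 6 erythroid and 3 of 5 T cell markers, at 0 of 5 macrophage markers and at 2 of 7 of stroma and endothelium. Of tissues outside the spleen it was present at 0 of 4 hepatocyte, 1 of 4 skeletal muscle and 2 of 5 neuron markers. The shares over the annotation were 24.9% of all genes and 51.1% of protein-coding genes. With 4 to 7 genes per list, several of these counts cannot be set apart from those shares. The B cell, erythroid and T cell markers without a peak in both were Ms4a1, Alas2, Cd2 and Cd3e. Of these Ms4a1 (2.12), Alas2 (0.839) and Cd2 (1.49) had one in replicate 1. Among the macrophage markers Cd68 (1.49) and Vcam1 (0.688) had one in replicate 1, and Spic, Adgre1 and Csf1r had none in either library. The part of cell composition in the heights of the imprinted genes was not tested.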

How the data were processed

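DNase-seq of 2 spleen libraries was analysed from the files deposited for each library, made on mm10 per the labels. The authors called peaks per library, without pooling, and the deposited peak lists give 1 signal value per peak. The authors' FDR file, a p-value type of unit, lists runs of bases under 0.05. The deposited footprint score was 1 constant (0.01), so only positions were used. No source used here names the aligner or the callers, and depth is unknown.

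Sites were unions of main peaks that overlap by at least 1 base. A gene's promoter height was its best peak within 1000 bases of a start site, or 0. Motifs were searched in the RefSeq GRCm38.p6 genome, within whose chromosomes every peak ended. Of the members 27 had a RefSeq promoter entry, not printed here. Named in full are members with a promoter peak, or a locus with a distal peak, in both libraries; of each other list, the 3 highest genes by mean and the alphabetically first gene that lacks a peak. The members and lists were chosen with earlier results of these data known, and the lists of imprinted genes come from textbook knowledge. The replicates are labelled as biological, and differences between them have no replicate check. The counting steps were tested on simulated data. Python 3.11.15, pandas 2.3.3, numpy 2.4.6 and bedtools 2.31.1 were used.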

Additional observations from a re-analysis of the deposited data

How the results depend on the processing

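The 12 members with a promoter peak in both libraries became 21 in the larger lists, and 14 to 19 with a single replicate. Those with a control region at a start or inside the gene went from 10 to 18 in the larger lists, and to 11 to 16 with a single replicate. With the strongest 50% of peaks 10 of the 12 were left, without Mcts2 and Snrpn. With equal numbers of peaks, or a height of at least 0.5 (chosen after seeing the data), 11 were left, without Snrpn. With start sites of basic transcripts the mean height of Impact went from 3.10 to 2.03. The 10 members with a distal peak in both became 17 in the larger lists, 6 without widening and 19 with 50 kb. That widening gave 151 sites, 62 of them in both libraries, and a mean of 401 footprints per library against 251. A single replicate gave 67 to 68 sites, against 39 in both. The median log2 ratio fell from 0.71 to 0.38 in the larger lists, and it cannot be given with 1 library. Searching called peaks in place of windows gave, as means over the libraries, promoter shares of 29.6% for ZFP57, 5.36% for NRF1, 9.20% for ETS and 43.7% for CACCC, and distal shares of 1.85% for YY1, 5.13% for ETS, 11.3% for GATA and 28.7% for CACCC. The difference between members and all peaks changed sign in 7 of 32 comparisons: promoter GATA in both replicates, promoter NRF1 and CCAAT in replicate 1, distal YY1 and CACCC in replicate 1, and distal CTCF in replicate 2. For promoter ZFP57 it went from 13.7 to 17.6 percentage points in replicate 1 and from 15.4 to 4.86 in replicate 2. Of 42 motif shares 34, and of 108 heights of single genes 106, moved by less than 1 SD, and no median log2 ratio changed sign. That SD was taken over the 2 libraries, so a value from a single replicate always lies within it. Such comparisons are part of both totals, which therefore do not measure stability. The motif shares that moved by more are those listed above for called peaks. The causes were not tested. No paired analysis was possible because there is 1 group.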
